A study of Arabidopsis thaliana with 6 samples.

Results

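The core of the circadian clock of Arabidopsis thaliana was described here through 10 genes, CCA1, LHY, PRR9, PRR7, PRR5, TOC1, ELF3, ELF4, LUX and GI, selected by gene identifier from the 32833 genes of the deposited count table. All 10 had counts in every library and passed the filter on low counts. Messenger RNA came from whole untreated 7-day-old seedlings of the Col-0 wild type and of a gbpl3 mutant, which the series' title ties to a nuclear basket protein, with 3 libraries per genotype. Seedlings of both genotypes grew on reduced-strength MS medium with 1% sucrose. The genotype labels of the mutant libraries carry the numbers 1 to 3 after gbpl3 and do not say whether these are alleles. They were read as replicates of 1 mutant because the design text calls the libraries triplicates, and every gbpl3 mean, SD and p-value rests on that reading. The sources used here do not give day length or the hour of harvest.

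The plant clock is a loop of transcriptional repressors that are made one after another over the day. CCA1 and LHY, related MYB factors made around dawn, repress genes of the evening, and the pseudo-response regulators PRR9, PRR7, PRR5 and TOC1 follow each other from morning to dusk and repress CCA1 and LHY in turn. ELF3, ELF4 and LUX form the evening complex, a repressor of PRR9, PRR7 and the growth genes PIF4 and PIF5, and GI acts with the F-box protein ZTL, which targets TOC1 for degradation. Because each of these transcripts rises and falls every day, their levels depend on the hour at which a seedling is frozen.

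The upstream regions carry short sequence elements by which these proteins read each other's genes, and those of CCA1 and TOC1 are shown because the pair repress one another. The window before the CCA1 gene (plus strand, chr2:19245291-19245590, TAIR10.1) and the window before TOC1 (plus strand, chr5:24674663-24674962) hold 300 bases each and no other annotated gene. Capitals mark a G-box and a TCP site in CCA1 and, in TOC1, an evening element that reads on the opposite strand.
CCA1: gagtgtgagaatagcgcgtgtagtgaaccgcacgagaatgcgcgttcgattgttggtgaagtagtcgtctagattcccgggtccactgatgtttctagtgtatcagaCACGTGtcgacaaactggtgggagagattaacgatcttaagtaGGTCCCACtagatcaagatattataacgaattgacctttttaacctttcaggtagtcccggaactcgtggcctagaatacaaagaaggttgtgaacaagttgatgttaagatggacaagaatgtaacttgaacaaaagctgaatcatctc
TOC1: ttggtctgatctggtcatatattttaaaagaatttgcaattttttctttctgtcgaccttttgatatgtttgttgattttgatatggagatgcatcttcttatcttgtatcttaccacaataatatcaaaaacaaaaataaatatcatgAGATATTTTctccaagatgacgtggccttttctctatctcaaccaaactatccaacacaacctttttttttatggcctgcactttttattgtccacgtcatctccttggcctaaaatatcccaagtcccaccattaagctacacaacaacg

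The evening element, AAAATATCT searched on both strands, is a site bound by CCA1 and LHY. Within 1000 bases before the annotated start it occurred in PRR5, TOC1, ELF4, LUX and GI, 5 of the 10 core genes, against 7.24% of 27444 protein-coding genes, and within 300 bases in PRR5, TOC1 and LUX, against 2.79%. One site of each gene follows, read 5′ to 3′ on the strand of the element, with the element in capitals, so that the flanks can be compared.
PRR5 site, chr5:8358715-8358743, plus strand: tggagaaaagAAAATATCTagaaaaaatc
TOC1 site, chr5:24674802-24674830, minus strand: catcttggagAAAATATCTcatgatattt
ELF4 site, chr2:16735471-16735499, minus strand: atactacaaaAAAATATCTtgcggattat
LUX site, chr3:17182979-17183007, plus strand: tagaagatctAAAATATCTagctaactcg
GI site, chr1:8060932-8060960, plus strand: gtaagattttAAAATATCTtaaaagatgt
PRR5 had 3 such elements in 1000 bases, and GI also had 3. PRR5 is annotated without untranslated regions, so its window starts at the coding sequence.

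The G-box, CACGTG, a palindrome bound by basic helix-loop-helix and bZIP factors, was found within 300 bases before CCA1, LHY, PRR9, PRR7 and LUX, against 7.09% of all genes. Apart from LUX, these are genes without an evening element in either window, and the flanks of the single boxes of CCA1, LHY and PRR7 are shown with the box in capitals.
CCA1 box, chr2:19245388-19245413, plus strand: gtgtatcagaCACGTGtcgacaaact
LHY box, chr1:37936-37961, minus strand: acaatatcacCACGTGtcgatctgcg
PRR7 box, chr5:642216-642241, minus strand: cccaccattaCACGTGtcagttcaaa
The TCP site, GGNCCCAC, lay before CCA1 alone among the core genes and before 1.18% of all genes. Of other elements in 300 bases, AAAAATCT, a CCA1-binding site, lay before PRR5 (7.94% of all genes), GATTCG, a form of the LUX-binding site, before PRR9 (9.34%), and GATACG before ELF3 and ELF4 (5.51%). A match describes letters in a window and does not show binding. The elements were selected as ones already known for clock proteins, so their shares among the core genes are not an independent result.

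Total counts ran from 9530643 to 12911891 per library, so 3 counts correspond to between 0.232 and 0.315 CPM (counts scaled by library size). GBPL3 itself stood at 65.95 to 68.8 normalised CPM in wild type and at 14.8 to 18.8 in the mutant, where the targeted transcript was reduced and still present. Leaf marker transcripts (RBCS1A and 3 light-harvesting genes) and root marker transcripts (PYK10, RCI3, PIN2 and TIP2;3) were detected in every library. Root markers summed to 4333 to 4520 CPM in wild type against 3399 to 3607 in gbpl3. Most of this sum was PYK10, at a mean of 4203 CPM against 3458, which was not called (adjusted p = 0.0696, edgeR). The other root markers, 3 of 4, were lower by the test, and 2 of 4 leaf markers were higher. Of all genes tested, 4.69% were lower and 6.06% higher. Seed storage markers CRA1, CRU3, OLEO1 and OLEO2 summed to 0.261 to 1.53 CPM in wild type against 18.1 to 214 in gbpl3, with 3 of 3 tested higher. CRU3, not tested, was at 0 in all wild-type libraries and had 1, 383 and 704 counts in gbpl3 replicates 1 to 3. CRA1 had 13.0, 34.9 and 129 CPM in the same gbpl3 libraries, so the mutant libraries differed widely. In whole seedlings, fewer cells of a type and less RNA per cell cannot be told apart. The part that these differences in tissue markers may have in the results below was not tested.

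Evening transcripts outweighed morning transcripts in all 6 libraries. Per kilobase of exon, the mean level of TOC1, ELF4, LUX and GI was 38.9 to 70.2 times the mean level of CCA1 and LHY in the same library. Even LUX, the lowest of the 4 evening genes, exceeded CCA1, the higher of the 2 dawn genes, by 9.03 to 19.2 times. In wild type, levels in CPM per kilobase descended from ELF4 (67.7 to 76.8) through PRR7 (50.8 to 65.2), PRR5 (52.4 to 58.0), GI (42.8 to 52.0), TOC1 (36.6 to 45.4), ELF3 (21.9 to 23.3), LUX (14.2 to 15.9), PRR9 (1.81 to 2.89) and CCA1 (0.825 to 1.54) to LHY (0.336 to 0.567). Among neighbours in that order, PRR7 and PRR5 overlapped, as did GI and TOC1, and the other neighbours did not. The length of PRR5 excludes untranslated regions and that of LUX includes long alternative exons, which may raise the first level and lower the second. This depends on the gene models used for counting and was not tested. ELF3, LUX, PRR9, CCA1 and LHY held the last places, in that order, in every library of both genotypes, while PRR5 ranked 2, 3 and 3 in the wild-type libraries, against 5, 3 and 5 in the gbpl3 libraries.

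**Figure D1:**
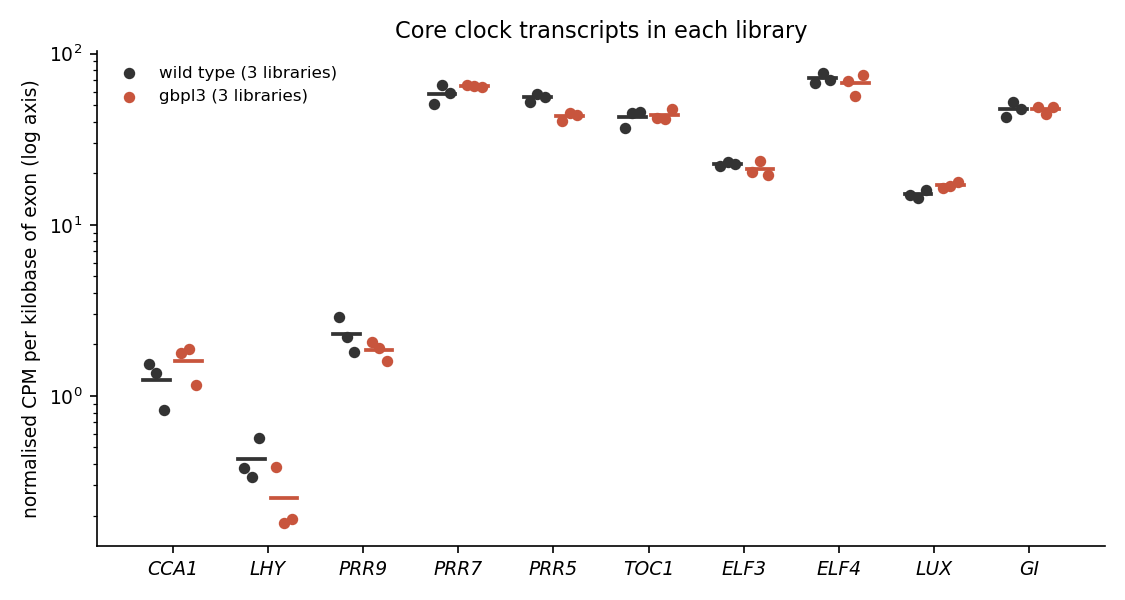
Normalised CPM per kilobase of exon (log axis) of the 10 core clock genes, with a point for each library and a bar for the mean of the 3 libraries of a genotype. CCA1, LHY and PRR9 lie far below the other 7 genes in both genotypes, and PRR5 is the gene whose gbpl3 points all lie below the wild-type points.

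The balance of dawn to evening transcripts was taken in each library as the mean log2 CPM per kilobase of CCA1 and LHY minus that of TOC1, ELF4, LUX and GI. It was -5.42, -5.76 and -5.73 in the wild-type libraries (replicates 1 to 3) against -5.44, -5.77 and -6.27 in the gbpl3 libraries. The genotypes overlapped, and gbpl3 replicate 3 was the lowest. The mean was -5.64 ± 0.19 (SD, n = 3) in wild type against -5.83 ± 0.42 (SD, n = 3) in gbpl3, a difference of -0.19 that is smaller than the pooled SD of 0.32. As a score over selected genes it was given no test.

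Single pairs showed how this balance was made up. CCA1 minus TOC1 was -4.52, -4.99 and -5.67 in wild type against -4.52, -4.43 and -5.28 in gbpl3, on the log2 scale per kilobase, so the ranges overlapped and the mutant mean was higher by 0.32. LHY minus TOC1 was -6.40, -6.87 and -6.20 in wild type against -6.58, -7.49 and -7.62 in gbpl3, again overlapping, with the mutant mean lower by the difference of -0.74. The mean differences of the dawn genes had opposite signs. The CCA1 difference was smaller than its pooled SD of 0.53, and the LHY difference was larger than its pooled SD of 0.47. Both are given without a test. LHY had only 7 to 19 counts per library, and its level was not called as different between genotypes (adjusted p = 0.43, edgeR). PRR9 minus TOC1 ranged from -4.82 to -3.62 over the 6 libraries, with its highest value in wild-type replicate 1.

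**Figure D2:**
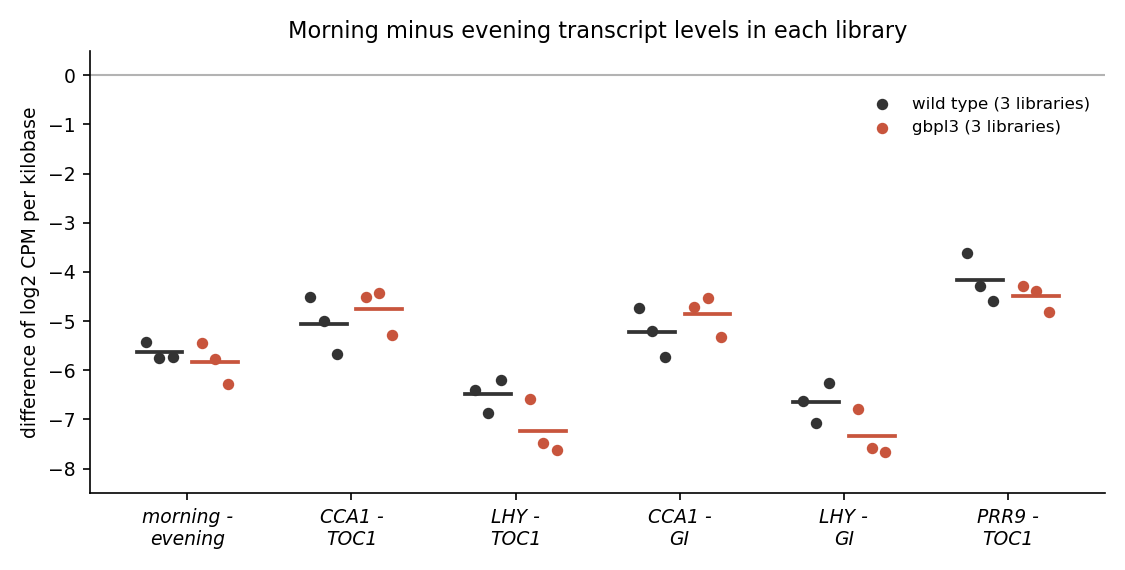
Difference of log2 CPM per kilobase between dawn and evening transcripts in each library, for the mean of CCA1 and LHY minus the mean of TOC1, ELF4, LUX and GI and for 5 single pairs, with bars for the mean of each genotype. All points lie below 0, and the points of both genotypes overlap in each column.

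The question put to each clock transcript was whether its level differed between gbpl3 and wild-type seedlings. Of the 10 core genes, PRR5 was lower in gbpl3 and none was higher by edgeR's quasi-likelihood test (adjusted p under 0.05). Over all 20677 genes tested, 10.7% were called, 4.69% as lower and 6.06% as higher, so 1 of 10 is close to the background. DESeq2 gave the same counts for the core genes, and PRR5 was also the only one with an unadjusted p under 0.05, against 23.6% of all genes. No core gene was both called and changed by 2-fold or more, against 2.77% of all genes. The median log2 fold change was -0.05 for the core genes and -0.00345 for all genes tested. For 8 of the 10 the 95% interval of the log2 fold change lay inside -1 to 1, that is, short of a 2-fold change either way, as it did for 78.2% of all genes. CCA1 and LHY, the least counted, were the exceptions. All gbpl3 libraries lay beyond all wild-type libraries for PRR5 and LUX, 2 of 10 genes, against 28.1% of all genes. The labels do not say whether replicates are separate cultures, and a p-value here reflects only how these libraries vary, which may be technical variation.

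The dawn repressors had few counts. CCA1 (AT2G46830, chromosome 2, 19245591 to 19248915) had 48, 45 and 22 counts in the wild-type libraries, replicates 1 to 3, against 51, 66 and 34 in the gbpl3 libraries in the same order. These are 4.18, 3.69 and 2.25 normalised CPM against 4.82, 5.10 and 3.16, and replicate 3 was the lowest in each genotype. The groups overlapped, and the log2 fold change of 0.36 (95% interval -0.31 to 1.04) did not pass the test (adjusted p = 0.552, edgeR). LHY (AT1G01060, chromosome 1, 33365 to 37871) had 15, 14 and 19 counts in wild type against 14, 8 and 7 in gbpl3, and its level of 1.47 ± 0.42 CPM (SD, n = 3) compared with 0.86 ± 0.40 CPM (SD, n = 3). Its log2 fold change of -0.76 had an interval of -1.87 to 0.36 (adjusted p = 0.43, edgeR), so a fall of more than 2-fold and a small rise both lay within the interval at this depth.

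Among the pseudo-response regulators, the morning gene PRR9 (AT2G46790, chromosome 2, 19232607 to 19235179) lies 10411 bases from CCA1 with 3 genes between them. Its counts were 71, 58 and 38 in wild type against 47, 53 and 37 in gbpl3, and the levels overlapped at 3.88 to 6.18 CPM against 3.44 to 4.44 CPM (log2 fold change -0.31, adjusted p = 0.566, edgeR). PRR7 (AT5G02810, chromosome 5, 637681 to 642030), which represses CCA1 and LHY from late morning on, stood at 164, 211 and 191 CPM in wild type against 212, 209 and 206 CPM in gbpl3. The mutant libraries of PRR7 were closely grouped and wild-type replicate 1 was the lowest, with a log2 fold change of 0.15 (interval -0.07 to 0.37, adjusted p = 0.439, edgeR).

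PRR5 (AT5G24470, chromosome 5, 8356204 to 8358546), a repressor of CCA1 and LHY in the afternoon, had 1008, 1186 and 920 counts in wild type against 716, 975 and 795 in gbpl3. On the CPM scale the levels were 87.8, 97.3 and 93.9 against 67.7, 75.3 and 73.8. All 3 mutant libraries lay below all wild-type libraries, and the mean fell from 93.0 ± 4.82 (SD, n = 3) to 72.3 ± 4.04 (SD, n = 3). This was a log2 fold change of -0.36 (SE 0.10, 95% interval -0.57 to -0.15, adjusted p = 0.0239, edgeR). The adjusted p rose to 0.0861 when wild-type replicate 3 was left out, to 0.134 for gbpl3 replicate 1 and to 0.0859 for gbpl3 replicate 3, while the log2 fold change stayed between -0.40 and -0.32 over the libraries left out in turn. Within a library, PRR5 minus PRR7 per kilobase was 0.04, -0.17 and -0.08 in wild type against -0.70, -0.52 and -0.53 in gbpl3 on the log2 scale, a contrast chosen after the values were seen and given without a test.

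TOC1 (AT5G61380, chromosome 5, 24674963 to 24678550), the last of the series and the repressor of CCA1 and LHY around dusk, stood at 103, 127 and 127 CPM in wild type against 118, 117 and 134 CPM in gbpl3. The groups overlapped throughout, and the log2 fold change of 0.05 had an interval of -0.18 to 0.27 (adjusted p = 0.853, edgeR).

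None of the 3 evening complex genes was called, against 10.7% of all genes, and none had an unadjusted p under 0.05, against 23.6%. ELF3 (AT2G25930, chromosome 2, 11058944 to 11063324), its scaffold, had 60.3, 64.1 and 62.4 CPM in wild type against 55.98, 64.8 and 53.8 CPM in gbpl3, where replicate 2 was the highest of all 6 libraries. ELF4 (AT2G40080, chromosome 2, 16734294 to 16734953) had 41.9, 47.5 and 43.5 CPM in wild type against 42.8, 35.0 and 46.6 CPM in gbpl3, where replicate 2 was the lowest of all 6. Both had a log2 fold change of -0.10, with intervals of -0.32 to 0.12 for ELF3 and -0.35 to 0.16 for ELF4. LUX (AT3G46640, chromosome 3, 17183042 to 17186959), the DNA-binding member, had 58.7, 55.8 and 62.2 CPM in wild type against 64.2, 66.2 and 69.3 CPM in gbpl3. LUX was higher in each mutant library than in any wild-type library, but its log2 fold change of 0.18 (interval -0.03 to 0.39) did not pass the test (adjusted p = 0.30, edgeR). ELF3, with 4094 counts, overlaps AT2G08135 and AT2G25940 on the opposite strand, with 520 and 245 counts, and LUX, with 4245, overlaps AT3G46650, with 151. The sources used here do not give the strand setting of the counting, so some reads of these genes could belong to either partner.

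GI (AT1G22770, chromosome 1, 8061751 to 8067790), a large plant-specific protein of the evening loop and of flowering control, had 184, 224 and 204 CPM in wild type against 208, 192 and 210 CPM in gbpl3. The mutant range lay inside the wild-type range, and the log2 fold change of -0.0043 had an interval of -0.22 to 0.21 (adjusted p = 0.989, edgeR). With 13783 counts over the libraries, GI was the most deeply counted core gene.

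**Figure D3:**
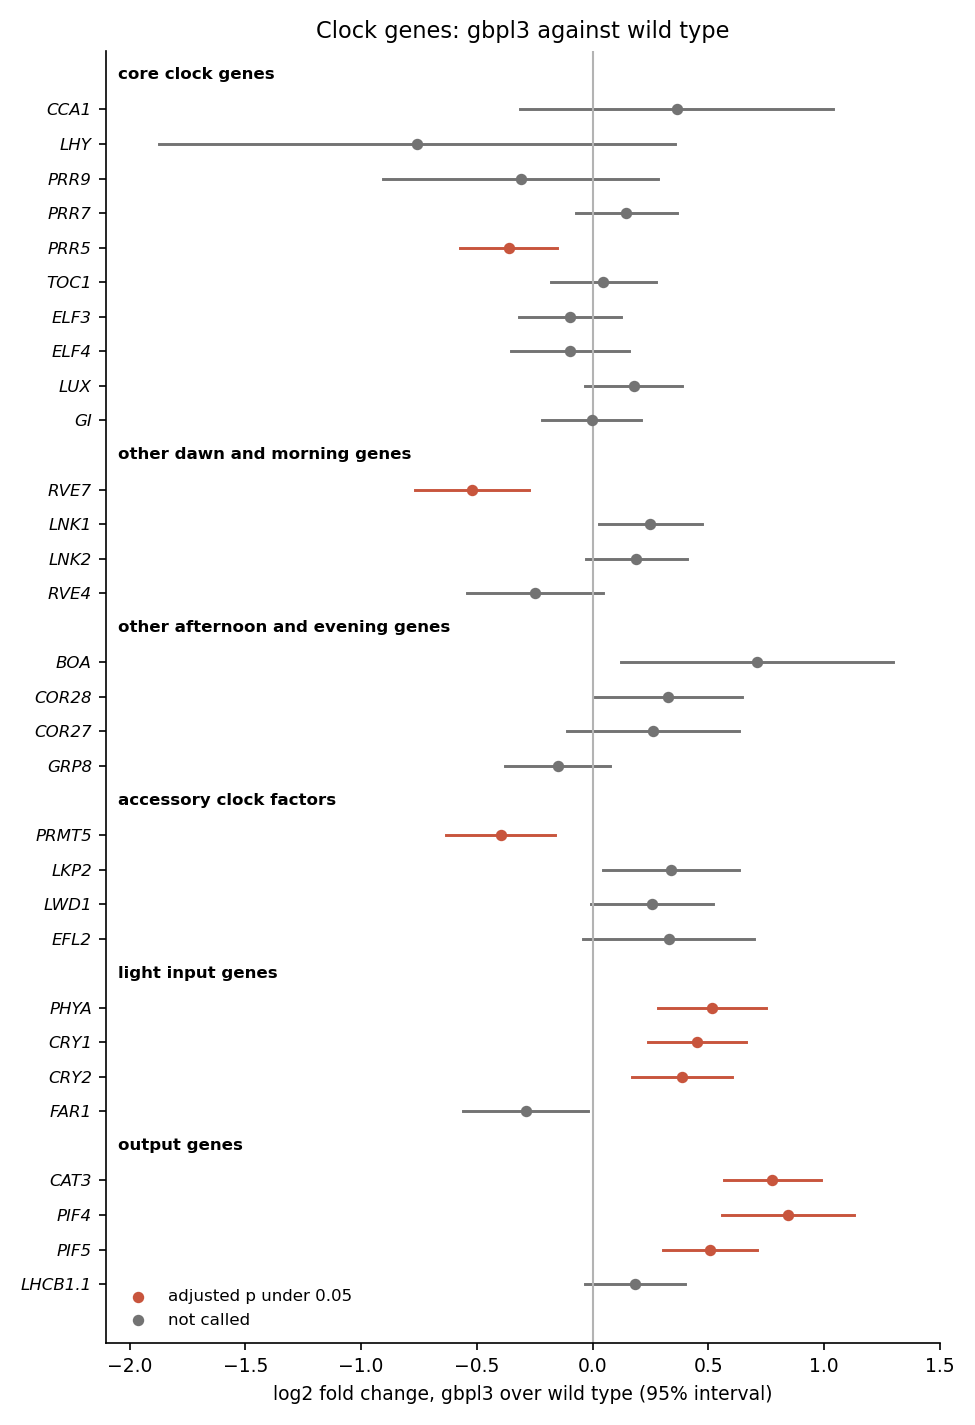
Log2 fold change of gbpl3 over wild type with its 95% interval from edgeR, for the 10 core clock genes and for the genes named from 5 lists of clock-related genes. Among the core genes PRR5 alone is marked as called, and the intervals of CCA1 and LHY are the widest of the core.

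The wider clock was described through 5 further lists with 59 genes, of which 57 were tested, 6 were higher and 2 lower. The share called was 14.0%, against 10.7% of all genes tested (6.06% higher and 4.69% lower). DESeq2 gave the same counts in each list, and 10 genes were higher and 4 lower at an unadjusted p under 0.05, a threshold that 23.6% of all genes passed. Taken over all 5 lists, these shares are near the background. By list, the share called was 8.33% of dawn and morning, 0% of afternoon and evening and 6.25% of accessory genes. It was 25% of light input and 33.3% of output genes, and no test of a list as a whole was made. A list of 12 genes was drawn up as other dawn and morning genes. In it RVE7 (also called EPR1), a MYB-like relative of CCA1, was lower and none was higher. CHE, also on this list, stood at a mean of 41.0 CPM per kilobase in wild type, near TOC1 at 42.4. The hour at which each listed gene peaks was not tested. RVE7 had 38.2, 40.9 and 38.7 CPM in wild type against 30.6, 25.7 and 25.8 CPM in gbpl3, with no overlap (log2 fold change -0.52, SE 0.12, adjusted p = 0.00815, edgeR; 0.0583 without gbpl3 replicate 3 and 0.0539 by limma on unfiltered FPKM). RVE8, RVE4 and RVE6, MYB activators of evening genes, and their coactivators LNK1 and LNK2 were not called, with log2 fold changes of 0.43, -0.25, 0.11, 0.25 and 0.19. LNK1 was higher in each gbpl3 library than in any wild-type library and had an adjusted p = 0.154 (edgeR).

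Of 8 other afternoon and evening genes none was called by edgeR or by DESeq2, against 10.7% of all genes by edgeR. Of the 8, 2 had an unadjusted p under 0.05 (edgeR), against 23.6% of all genes. These were BOA, a close relative of LUX, and COR28, a cold-regulated clock repressor. BOA had 2.79, 3.61 and 4.29 CPM in wild type against 5.48, 5.02 and 6.97 CPM in gbpl3, without overlap (log2 fold change 0.71, interval 0.12 to 1.30, adjusted p = 0.122, edgeR). The list also held GRP7, an abundant RNA-binding protein gene of the evening, at 2219 to 2482 CPM in wild type against 2020 to 2625 CPM in gbpl3, so the mutant range spanned the wild-type range. FKF1, a blue-light F-box gene, and PRR3, a partner of TOC1, had log2 fold changes of 0.05 and 0.02.

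Of 17 accessory factors 16 were tested, and 1 was lower and none higher, against 4.69% and 6.06% of all genes. This was PRMT5, an arginine methyltransferase needed for correct splicing of clock transcripts. It had 59.3, 48.7 and 57.1 CPM in wild type against 42.2, 44.3 and 38.7 CPM in gbpl3 (log2 fold change -0.40, SE 0.11, adjusted p = 0.0284, edgeR). That call ended when any library but wild-type replicate 2 or gbpl3 replicate 2 was left out (adjusted p = 0.0917 to 0.156) and with the replicate number as a block (adjusted p = 0.0644). It also ended in the limma fits to FPKM (adjusted p = 0.0736 to 0.0994). ZTL and its relative LKP2, the F-box photoreceptors that work with GI, did not pass the test, with log2 fold changes of 0.21 (adjusted p = 0.309) and 0.34 (adjusted p = 0.138, edgeR). EFL1 had 46 counts in all and was not tested.

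Photoreceptors feed light signals to the clock. In the list of 12 light input genes, 3 were higher and none lower, against 6.06% and 4.69% of all genes. PHYA, the far-red photoreceptor gene, had 120, 155 and 154 CPM in wild type against 193, 217 and 203 CPM in gbpl3 (log2 fold change 0.52, SE 0.11, adjusted p = 0.00548, edgeR). The blue-light receptor genes CRY1 and CRY2 both rose. CRY1 went from 117 ± 11.6 to 159 ± 3.67 CPM (SD, n = 3; log2 fold change 0.45, SE 0.10, adjusted p = 0.00742, edgeR). CRY2 had 123 ± 12.6 CPM in wild type against 160.5 ± 8.59 CPM in gbpl3 (SD, n = 3; log2 fold change 0.39, adjusted p = 0.0213, edgeR). The groups did not overlap for any of these 3 genes, which were named because they were called. In the list, 4 genes lay higher in every gbpl3 library and 2 lower, against 14.4% and 13.6% of all genes. Leaving out wild-type replicate 3 ended the CRY1 call (adjusted p = 0.0595). Leaving out any library other than a replicate 2 ended the CRY2 call (adjusted p = 0.0547 to 0.113), as did the replicate block (adjusted p = 0.0521). All 3 calls ended in the limma fits to the deposited FPKM values, with adjusted p = 0.0825 to 0.109 for PHYA, 0.0576 to 0.0691 for CRY1 and 0.0921 to 0.103 for CRY2. PHYB, the red-light receptor gene, had a log2 fold change of -0.14 and HY5, a transcription factor of light responses, of -0.42 (adjusted p = 0.447 and 0.179, edgeR).

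Among 10 output genes, 9 of them tested, 3 were higher and none lower, against 6.06% and 4.69% of all genes. PIF4 and PIF5, growth-promoting transcription factors and known targets of the evening complex, both rose. PIF4 had 64.4, 105 and 81.1 CPM in wild type against 149, 141 and 160 CPM in gbpl3, and wild-type replicates differed more than mutant replicates (log2 fold change 0.84, SE 0.14, adjusted p = 0.000598, edgeR). PIF5 rose from 75.8 ± 3.21 to 108 ± 4.03 CPM (SD, n = 3; log2 fold change 0.51, adjusted p = 0.00232, edgeR). CAT3, a catalase gene that peaks in the evening, had 1058, 1128 and 1026 CPM in wild type against 1856, 1695 and 1953 CPM in gbpl3 (log2 fold change 0.78, SE 0.10, adjusted p = 6.05e-05, edgeR). All 3 calls held when each library was left out in turn, and the PIF4 call ended in the limma fit to unfiltered FPKM (adjusted p = 0.0575). CAT2, the morning-phased catalase gene, had a log2 fold change of 0.07 (adjusted p = 0.769, edgeR), and the photosynthetic LHCB1.1, one of several near-identical copies, of 0.18. CO, a flowering regulator, was at 1.70 to 3.28 CPM, and FT, the flowering signal gene, at 0 to 4 counts per library and was not tested. Of the leaf markers, LHCB2.2 and LHCB3 were also higher, with log2 fold changes of 0.60 and 0.38, while RBCS1A at 0.04 and CAB3 at 0.30 were not called. Of the root markers, RCI3, PIN2 and TIP2;3 were lower, at -1.30, -0.44 and -4.25, and PYK10 at -0.28 was not called. The 3 tested seed markers were higher, from near 0 in wild type, and the summed level of the list was 18.1 to 214 CPM in gbpl3. Whether these shifts bear on the photoreceptor and output genes was not tested.

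**Figure D4:**
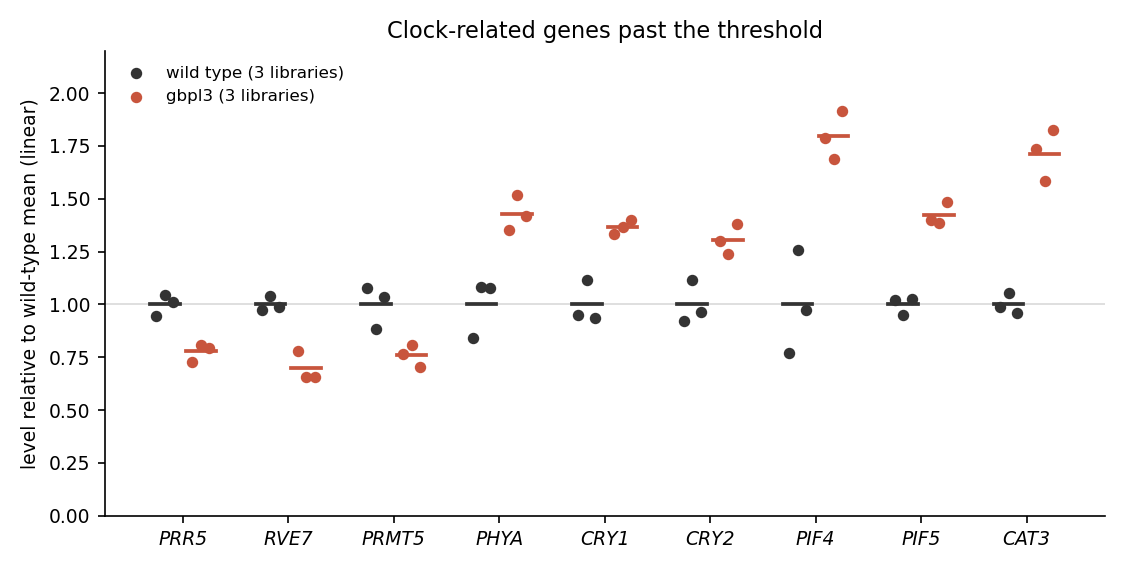
Level of the 9 clock-related genes past the threshold in each library, divided by the wild-type mean of the gene (linear axis from 0), with bars for the genotype means. PRR5, RVE7 and PRMT5 lie below 1 in every gbpl3 library, and PHYA, CRY1, CRY2, PIF4, PIF5 and CAT3 lie above every wild-type library.

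Spread between libraries of a genotype differed among the core genes. The pooled within-genotype SD of log2 CPM was 0.41 for CCA1, 0.44 for LHY and 0.26 for PRR9, and between 0.07 for LUX and 0.16 for ELF4 for the other 7. The median over all genes tested was 0.20. The genes with wide spread are also those with the fewest counts, 266, 77 and 304 over the 6 libraries.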

How the data were processed

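Strand-specific Illumina messenger RNA libraries were made, per the labels' protocols. Raw counts for each gene were deposited by the authors, and a second table of FPKM values, which the authors scaled by length and depth. HISAT2 2.0.4, HTSeq 0.6.1p1 and TAIR10 are listed, per the submitters' processing notes, and the sources used here do not give the counting settings. Genotype and number came from sample titles, and all sample columns were used. Counts were filtered with filterByExpr, which left 20677 genes, given TMM factors and fitted by the quasi-likelihood method of edgeR 4.0.16 (R 4.3.3), with Benjamini-Hochberg adjustment over all of them and a threshold of 0.05. CPM use TMM-scaled library sizes, and log2 CPM used a prior count of 2. Intervals of a log2 fold change take its SE as its size over the square root of F. Exon lengths, coordinates and sequences came from RefSeq TAIR10.1, whose chromosomes carry the TAIR10 gene identifiers, with 99.1% of identifiers matched. Of 82 listed names 74 matched a reference symbol or synonym, and GBPL3 (AT5G46070) is assigned from background knowledge. The edgeR fit of genotype was tested on simulated counts, and the other fits were not. Within a genotype, chi-square per degree of freedom between libraries was 4.97 to 14.4, above sampling noise, so no library was counted as a duplicate. Other settings tried were DESeq2 1.42.0, RLE or upper-quartile scaling, other filters, a replicate block, each library left out, and limma 3.58.1 on log2(FPKM + 1) or log2(FPKM + 0.1). The members, lists and tests were chosen with earlier results of these data known. Named were all core genes, GBPL3, from each list the 4 smallest adjusted p and every call, and 5 genes each with profiles nearest to CCA1 and TOC1. Other genes named in the text, from the same lists and markers, were chosen after their values were seen.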

Additional observations from a re-analysis of the deposited data

How the results depend on the processing

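Low counts limit CCA1, LHY and PRR9, and 3 libraries per genotype limit every call. RLE and upper-quartile scaling, DESeq2 and both filters on counts left the number of genes called in each list the same. Same-numbered libraries did not deviate together (correlations of deviations -0.06 to 0.04, with 2 of 6 libraries correlating best with their own number), so the numbers were not read as pairs. With the replicate block, 916 genes were higher instead of 1253 and 618 lower instead of 969, 2 light input genes were higher instead of 3 and 0 accessory factors lower instead of 1, and PRR5 was still called.

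Leaving out each library in turn gave 629 to 1443 genes higher and 320 to 1238 lower, 0 to 1 lower for the core, dawn and accessory lists, and 1 to 3 light input genes higher. With limma on log2(FPKM + 1), 424 genes were higher and 390 lower, with log2(FPKM + 0.1) 384 and 368, and without a filter 294 and 227. In these 3 fits 0 light input genes were higher and 0 accessory factors lower, and without the filter 0 dawn genes were lower, while PRR5 was called in all 3. The cause was not tested. The dawn-to-evening difference between genotypes, -0.19, ran from -0.39 to 0.07 over its alternatives, within 1 SD of the main value, and no call reversed direction. Of 594 values of single named genes, 29 ended a call and none gained one, but most of the named genes had no call to end. Calls ended in 8 of 15 other settings for PRMT5 and for CRY2, and in 4 for CRY1. They ended in 3 for PRR5 and for PHYA, in 2 for RVE7 and in 1 for PIF4.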

Other observations

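Profiles over the 6 libraries (log2 CPM minus the gene's own mean) were compared with those of CCA1 and TOC1 among genes averaging 10 CPM or more, by root mean square difference. Nearest to TOC1 among 12743 genes were LYK3, MGT6, VPS11, AT5G18525 and AT3G10060, at 0.0280 to 0.0351 on the log2 scale, where the median gene was at 0.203. Among core genes GI came closest, in place 167 at 0.0760, followed by PRR7 in place 633 at 0.0993, while PRR5, in place 7680 at 0.227, lay beyond the median. Nearest to CCA1 among 12744 genes were AT4G16563, MPK12, AT1G56610, AT5G41580 and AT5G24010, at 0.139 to 0.191 against a median of 0.419, and PRR7 was the nearest core gene, in place 3521. PRR9 and LHY fell below the level required, as did CCA1 itself. CCA1 had 22 to 66 counts per library, so low counts limit its profile and the distances from it. None of the genes named as nearest to TOC1 or CCA1 was called between genotypes, by edgeR or by DESeq2. They were selected for likeness to TOC1 or CCA1, themselves not called, over the same libraries, so this is not an independent result.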
